A study of Mus musculus with 18 samples.

Results

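The MS4A family of myeloid cells was examined as the 6 genes Ms4a7, Ms4a6b, Ms4a6c, Ms4a6d, Ms4a4a and Ms4a4c, taken by name from every table of a mouse glioma series. All 6 were found in each table, among 35842 genes in the Ras tumour and cell line tables, 18267 in the CD11b table, 28692 in the 10x table and 28474 in the Drop-seq table. They were chosen by name, with no threshold on a measured value, but with earlier results of these data known. MS4A proteins cross the membrane at several hydrophobic stretches and sit beside receptors of immune cells, whose signalling and trafficking they modify. The best-known relatives are Ms4a1, which encodes CD20 of B cells, and Ms4a2, which encodes the beta chain of the IgE receptor of mast cells. In the brain, mouse Ms4a7 is used as a marker of border-associated and blood-derived macrophages. Human MS4A4A pairs with the fungal receptor dectin-1 and lies at a locus linked to soluble TREM2.

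The series held 18 libraries of Boy/J mice in 8 groups. Glioma tissue driven by HRasV12 and dominant negative p53, called Ras tumours here, came from mice given vehicle (n = 4, also labelled untreated) or PLX3397 (n = 4), by daily oral gavage at 100 mg/kg from day 7 after implantation until the mice were moribund. Cells caught on CD11b beads came from PDGFB-driven tumours after 3 days of vehicle (n = 1) or of the same dose of PLX3397 (n = 2), begun on day 14. The remaining groups were untreated: cultures of Ras tumours (n = 2) and of PDGF tumours (n = 3), grown with added growth factors, and single-cell libraries of Ras tumour, 1 made with 10x droplets and 1 with Drop-seq. PLX3397 inhibits CSF1R, the receptor for the growth factors on which macrophages and microglia depend, and also KIT and FLT3. The labels used here give neither the age of the mice nor whether tumours were pooled, and the number in a title names a mouse in the Ras and CD11b groups. Each bulk library held 26.8 to 35.8 M counts (M is 1e6).

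The 6 members lie together on mouse chromosome 19, within 284 kb of the GRCm38 build, from base 11321039 to base 11604849. Ms4a7 (chr19:11321039-11336146) and Ms4a6d (chr19:11586604-11604849) are on the minus strand. Ms4a4a (chr19:11375523-11392790), Ms4a4c (chr19:11404770-11427246), Ms4a6c (chr19:11469366-11482192) and Ms4a6b (chr19:11516512-11531256) are on the plus strand. All are annotated as protein coding. The Ms4a6 genes are near copies: the coding sequence of Ms4a6b was 86.3% identical to that of Ms4a6c and 81.8% identical to that of Ms4a6d over the aligned bases. Ms4a4c was 91.8% identical to Ms4a4b, a T cell gene, and 87.9% identical to Ms4a4d, whereas Ms4a4a was 68.9% identical to Ms4a4c. Of all 50-base stretches of the annotated transcripts, 10.5% of those of Ms4a6c also occur in another gene. The share was 8.19% for Ms4a4c, 3.57% for Ms4a6b, 2.54% for Ms4a6d, 0.306% for Ms4a7 and 0% for Ms4a4a. Not all of these other genes are paralogs. Of the 11 for Ms4a6c only Ms4a6b is an MS4A gene, and the 244 for Ms4a7 include no MS4A gene. Reads from such stretches can match another gene equally well, so the counts of Ms4a6c and Ms4a4c carry the most uncertainty of this kind.

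The likeness of Ms4a6b and Ms4a6c extends into the bases before their RefSeq starts, called promoters here. The pair was picked because its levels were the most alike across the Ras tumour libraries. Whether the shared sequence bears on the levels was not tested. The lines give the 250 bases before the RefSeq start of each gene, 5' to 3' on the plus strand of GRCm38.p6, at chr19:11518309-11518558 for Ms4a6b and chr19:11469118-11469367 for Ms4a6c. Capitals mark the longest identical run.
Ms4a6b: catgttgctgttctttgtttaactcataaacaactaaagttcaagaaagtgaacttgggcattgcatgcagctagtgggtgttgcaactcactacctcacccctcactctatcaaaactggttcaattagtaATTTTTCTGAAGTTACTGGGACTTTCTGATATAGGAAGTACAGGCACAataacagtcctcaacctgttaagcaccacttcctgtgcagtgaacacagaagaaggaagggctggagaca
Ms4a6c: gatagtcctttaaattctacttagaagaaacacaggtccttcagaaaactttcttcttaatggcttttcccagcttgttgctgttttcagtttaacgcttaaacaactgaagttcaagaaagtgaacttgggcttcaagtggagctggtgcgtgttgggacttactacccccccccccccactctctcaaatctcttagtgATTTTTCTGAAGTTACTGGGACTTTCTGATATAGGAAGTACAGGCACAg

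The run is 48 bases long. Counted back from the base before the start as -1, it begins at -118 in Ms4a6b and at -49 in Ms4a6c. It occurs in 2 of the 32851 windows of the RefSeq promoter table, those of Ms4a6b and Ms4a6c. The longest run shared by any other pair of different members was 9 bases. Ms4a6d had no entry. The windows of Ms4a6b and Ms4a4c lie within the bounds given above for these genes, which begin further upstream. GAGGAA, a form of site bound by the ETS factor PU.1, occurs on either strand in 23.3% of all such windows. Among the 5 members with an entry, it occurs in that of Ms4a4c. Shorter and other forms of ETS sites, such as the AGGAAGT within the shared run, were not searched. TTTCNNTTTC, the core letters of the interferon-stimulated response element, occurs on either strand in 2.98% of all windows and in 0 of the member windows. A match of letters is a description and shows no binding.

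In Ras tumours, all 6 members had lower mean levels under PLX3397 than under vehicle, and for 4 of them every PLX3397 library lay below every vehicle library. Among the 18366 genes tested, 2.09% were separated in this direction. The fitted levels of Ms4a7, Ms4a6b and Ms4a6c were 3.57 to 3.77 times lower, that of Ms4a6d was 2.39 times lower, and Ms4a4a and Ms4a4c overlapped between groups. The comparison bears on how much of the tumour's myeloid transcripts is left after long inhibition of CSF1R. None of the 6 passed the edgeR quasi-likelihood test at a Benjamini-Hochberg adjusted p of 0.05, and neither did any other gene (0% called). At an unadjusted p under 0.05, 5 of the 6 members were lower, against 3.11% of all genes. With DESeq2, 4 of the 6 were called lower, against 0.872% of the 20078 genes with an adjusted p. The members were chosen with earlier results known, so setting them against these shares is no test of the family. In bulk tissue, fewer cells of a type and less RNA per cell cannot be told apart.

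Ms4a7, the macrophage marker, stood in the vehicle libraries 1 to 4 at 36.1, 16.2, 15.4 and 14.0 counts per M (CPM, scaled by the trimmed mean of M values). The PLX3397 libraries 1 to 4 stood at 7.89, 6.63, 2.15 and 5.36 CPM. Vehicle library 1 was far above the other vehicle libraries, PLX3397 library 3 was the lowest, and the groups did not overlap. The means were 20.4 ± 10.5 CPM (SD, n = 4) and 5.51 ± 2.46 CPM (SD, n = 4), with a log2 fold of PLX3397 over vehicle of -1.89 ± 0.47 (SE; edgeR unadjusted p = 0.00355, adjusted p = 0.557). Without vehicle library 1 the log2 fold was -1.45.

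The Ms4a6 genes are mouse relatives of human MS4A6A, a gene of monocytes and macrophages. Ms4a6b measured 75.3, 46.9, 47.8 and 30.6 CPM in the vehicle libraries 1 to 4 and 15.7, 16.8, 5.66 and 15.1 CPM in the PLX3397 libraries 1 to 4. PLX3397 libraries 1, 2 and 4 lay close together, library 3 was far below them, and no PLX3397 library reached the lowest vehicle library. The log2 fold was -1.91 ± 0.39 (SE, edgeR adjusted p = 0.415).

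Ms4a6c stood at 143, 94.6, 87.0 and 59.4 CPM under vehicle and at 32.8, 29.5, 13.7 and 31.7 CPM under PLX3397, again with separate groups. It had the smallest unadjusted p of the members (0.000696 by edgeR), with a log2 fold of -1.84 ± 0.35 (SE, adjusted p = 0.373). The extremes were those of Ms4a6b: vehicle library 1 was highest, vehicle library 4 lowest of its group and PLX3397 library 3 lowest of all.

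Ms4a6d stood at 109, 76.8, 63.8 and 58.8 CPM under vehicle and at 34.0, 38.0, 19.3 and 37.8 CPM under PLX3397. Its groups did not overlap either. Its log2 fold was -1.26 ± 0.27 (SE, edgeR adjusted p = 0.435). Whether the folds of the members differ from each other was not tested.

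The Ms4a4 genes were less even between libraries. Ms4a4a, the counterpart of the human dectin-1 partner, measured 46.0, 31.8, 16.5 and 9.46 CPM under vehicle and 6.74, 15.5, 3.40 and 10.1 CPM under PLX3397. The highest vehicle library was 4.86 times the lowest, and 2 of the 4 PLX3397 libraries lay below all vehicle libraries. Its log2 fold was -1.54 ± 0.59 (SE, edgeR adjusted p = 1.00).

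Ms4a4c, a gene of monocytes and lymphocytes in mice, measured 67.8, 21.4, 44.6 and 19.9 CPM under vehicle and 28.8, 6.33, 10.6 and 31.0 CPM under PLX3397. PLX3397 libraries 1 and 4 lay above vehicle libraries 2 and 4, so the groups overlapped. The log2 fold was -1.0 ± 0.60 (SE, edgeR adjusted p = 1.00), and it was -0.56 without vehicle library 1.

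**Figure D1:**
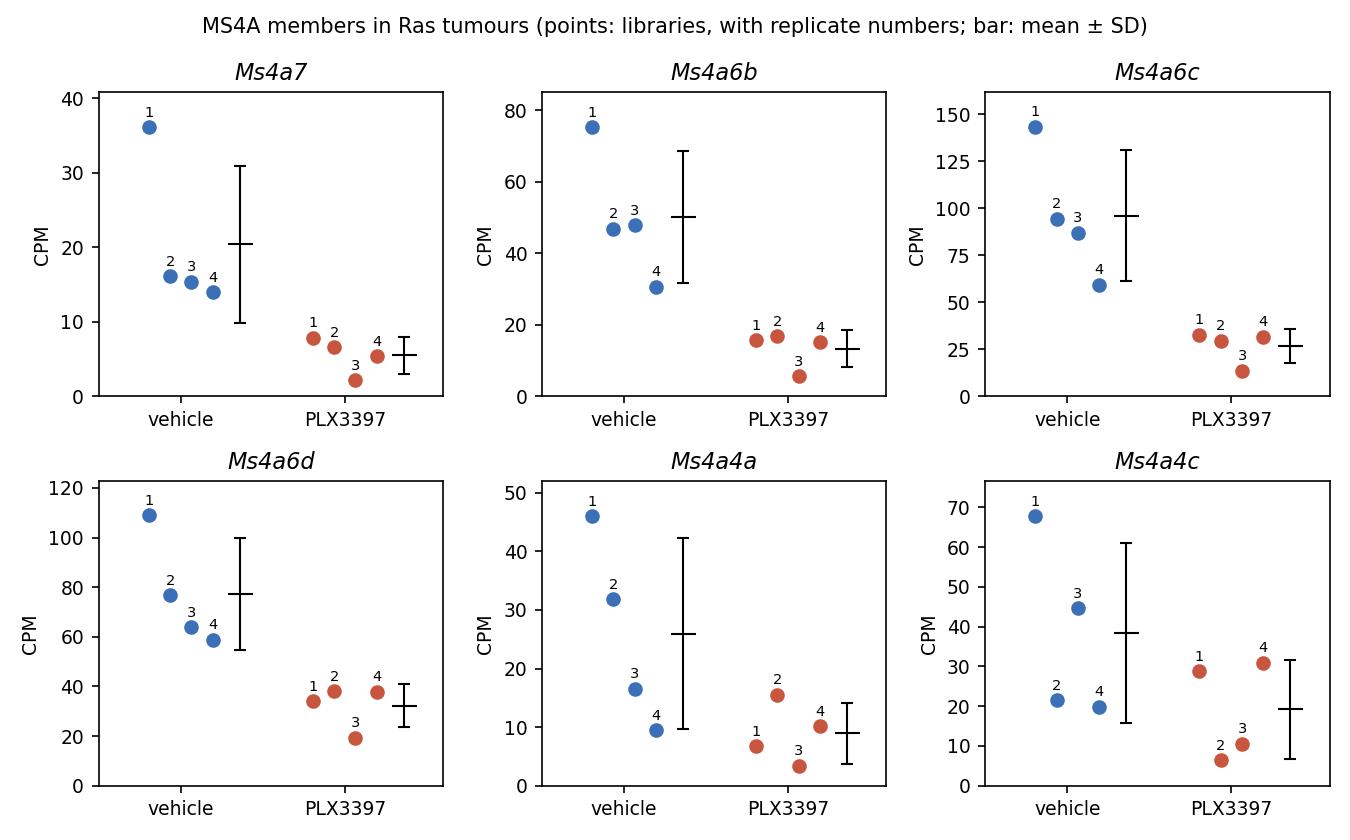
Level of each member in the 8 Ras tumour libraries (vertical axis, CPM; points are libraries with their replicate numbers, bars are mean ± SD of 4 libraries). The groups do not overlap for Ms4a7, Ms4a6b, Ms4a6c and Ms4a6d, where the highest PLX3397 values are 7.89, 16.8, 32.8 and 38.0 CPM, and they overlap for Ms4a4a and Ms4a4c.

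The DESeq2 adjusted p was 0.0132 for Ms4a7, 0.00170 for Ms4a6b, 0.000654 for Ms4a6c and 0.0137 for Ms4a6d, and it was 0.451 for Ms4a4a and 1.00 for Ms4a4c. For each of the first 4 genes this was the smallest adjusted p over 8 fits that left out a library and 5 other settings, and the largest was 1.00. The direction was lower under PLX3397 in all of these fits for all 6 members. The libraries also split by the Y-linked gene Ddx3y, with 2 vehicle and 2 PLX3397 libraries on each side. Within the libraries with Ddx3y, the difference of mean log2(CPM + 1) ran from -1.32 for Ms4a6d to -1.87 for Ms4a6c. Within those without it, the difference ran from -0.68 for Ms4a4c to -1.92 for Ms4a6b, so every member was lower under PLX3397 on both sides.

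Levels of different genes can be compared only per length of transcript. The length used here is that of all annotated exons of a gene together, which can exceed that of the transcripts present. It was longest for Ms4a6b and Ms4a7, at 4485 and 4453 bases. Per kb of annotated exon, Ms4a6c and Ms4a6d were highest in vehicle Ras tumours, at 46.9 ± 17.1 and 44.5 ± 13 CPM per kb (SD, n = 4). Ms4a4a followed at 31.1 ± 19.5, Ms4a4c at 21.9 ± 12.9 and Ms4a6b at 11.2 ± 4.13 CPM per kb. Ms4a7 was lowest, at 4.58 ± 2.36 CPM per kb. Each neighbouring pair in this order overlapped within 1 SD, except Ms4a6b and Ms4a7. In the CD11b vehicle library the values per kb were 275 for Ms4a6c, 253 for Ms4a4a, 250 for Ms4a6d and 142 for Ms4a4c, with Ms4a6b at 71.5 and Ms4a7 again lowest at 45.6 CPM per kb.

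Most members went together from library to library. Over the 8 Ras tumour libraries, Pearson's r of log2(CPM + 1) was 0.996 between Ms4a6b and Ms4a6c and 0.989 between each of them and Ms4a6d. It was 0.979 between Ms4a7 and Ms4a6b. Ms4a4c was the least alike, with r from 0.482 with Ms4a4a to 0.707 with Ms4a6c. These correlations describe 8 libraries that share the split into treatment groups, and they have no test.

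The 5 nearest genes of each member were sought among 11425 other genes with a mean log2 CPM of at least 3. For Ms4a7 they were Cyp4f18 (r = 0.990), Ccr1 and Unc93b1 (both 0.983), Ms4a6b and Cd48. Ms4a6b was nearest to Ms4a6c, Cyp4f18, Ms4a6d, Pirb and Ccr1, and Ms4a6c to Ms4a6b, Ms4a6d, Cyp4f18, Pirb and Ms4a7. Ms4a6d was nearest to Ms4a6b, Ms4a6c, Cyp4f18, Oxa1l and Ms4a7. Cyp4f18, a lipid hydroxylase of myeloid cells, thus stood on the lists of all 4 members whose groups did not overlap. Ms4a4a was nearest to Apobec1 and Oxa1l (both r = 0.955), Rnase4, Ctla2b and Tnfsf13. Ms4a4c was nearest to Slfn5 (r = 0.988), Pydc4 (r = 0.982), Slfn1, Trim14 and Slfn2, and its list held no member of the family. With rank correlations, 0 to 2 of the 5 genes of a member remained.

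Other genes of myeloid cells had lower mean levels beside the family. All 10 pan-myeloid genes had log2 folds below 0, with a median of -1.23, against -1.69 for the 6 members and 0.00 for all genes tested. Their summed level was 1441 to 2624 CPM under vehicle and 366 to 1236 CPM under PLX3397, without overlap. Of these 10 genes, 0 were called by edgeR and 1 by DESeq2, Ptprc, the leukocyte phosphatase CD45. The 8 antigen presentation genes, those of the class II complex and its loading, had a median log2 fold of -2.62, with 0 called by edgeR and 6 by DESeq2. Their sum was 469 to 1393 CPM under vehicle and 55.0 to 382 CPM under PLX3397. The 10 neutrophil markers summed to 70.0 to 583 CPM under vehicle and 30.8 to 64.9 CPM under PLX3397, but 5 of the 9 tested had a log2 fold below 0 (median -0.03, range -3.65 to 1.01). All 10 macrophage markers had log2 folds below 0 (median -1.35), and their sums, 1853 to 4790 CPM under vehicle and 610 to 2782 CPM under PLX3397, overlapped. The part of any of these cell types in the member levels was not tested.

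Genes of the kinds of macrophage were counted next. Of 12 microglia genes, 10 had a log2 fold below 0 (median -0.87), of 12 genes of monocyte-derived macrophages 9 did (median -0.34), and of 10 genes of border-associated macrophages 10 did (median -1.64). DESeq2 called 1, 2 and 2 of them lower, and edgeR called 0. Clec10a, a lectin of border-associated macrophages, stood at 2.73 to 3.97 CPM under vehicle and 0.417 to 1.33 CPM under PLX3397. The 8 monocyte genes had a median of 0.02, with 4 below 0 and 0 called by either tool. None of the 12 interferon response genes had a log2 fold below 0 (median 0.40, 0 called by either tool). The Slfn genes nearest to Ms4a4c are also known as interferon-inducible.

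The list named MS4A partners held Trem2, its adaptor Tyrobp, dectin-1 (Clec7a), the kinase Syk and its adaptor Card9. Whether each pairs with an MS4A protein was not tested. All 5 had log2 folds below 0 (median -1.23) and 0 were called by edgeR or DESeq2. Syk stood at 28.5 to 35.8 CPM under vehicle and 5.92 to 22.4 CPM under PLX3397, without overlap. Of the 16 other MS4A genes listed, 7 passed the filter on low counts, with a median log2 fold of 0.15 and 0 called by either tool. Ms4a14, next to Ms4a7 on the chromosome, stood at 2.06 to 8.08 CPM under vehicle and 1.02 to 1.83 CPM under PLX3397, with a log2 fold of -1.49 ± 0.45 (SE, edgeR adjusted p = 0.791). Tmem176a and Tmem176b, distant relatives of the family on another chromosome, overlapped between groups, with log2 folds of 0.24 ± 0.48 and 0.15 ± 0.34 (SE, edgeR adjusted p = 1.00 for both).

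In CD11b-positive cells of PDGFB tumours, 3 days of PLX3397 went with lower levels of 5 of the 6 members, and 2 of them, Ms4a6b and Ms4a4c, fell by the edgeR test. Of 15052 genes tested, 1.78% were called lower. Both PLX3397 libraries lay below the vehicle library for 5 members, but so they did for 42.0% of all genes, and for 41.6% both lay above it. In either direction edgeR called 6.35% of genes. The comparison bears on the early response of CD11b-positive cells to the inhibitor. It has 1 residual degree of freedom, and the spread of the single vehicle library was taken to equal that of the PLX3397 pair. The calls thus rest largely on spread borrowed from all genes in the fit. The beads select CD11b, encoded by Itgam, so that gene is no independent marker here.

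The vehicle library held 321 CPM of Ms4a6b, and PLX3397 libraries 1 and 2 held 167 and 140 CPM. Its log2 fold was -1.06 ± 0.18 (SE, edgeR adjusted p = 0.0450). Ms4a4c stood at 249 CPM against 144 and 136 CPM, with a log2 fold of -0.83 ± 0.15 (SE, edgeR adjusted p = 0.0491). Both lay just inside the threshold, and DESeq2 called both as well (adjusted p = 0.000354 and 0.00662), among 3.99% of genes called lower. Over 3 other settings the adjusted p reached at most 0.0402 for Ms4a6b and 0.0452 for Ms4a4c.

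Ms4a6c stood at 563 CPM against 397 and 295 CPM, a log2 fold of -0.70 ± 0.24 (SE, edgeR adjusted p = 0.138). Ms4a6d stood at 434 CPM against 389 and 343 CPM, and its log2 fold was -0.25 ± 0.18 (SE, edgeR adjusted p = 0.424). Neither passed the test, although both PLX3397 libraries were below the vehicle library. Ms4a4a, at 211 CPM against 196 and 157 CPM, had a log2 fold of -0.26 ± 0.20 (SE, edgeR adjusted p = 0.430).

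Ms4a7 was the member without a common direction. It stood at 203 CPM in the vehicle library, 272 CPM in PLX3397 library 1 and 197 CPM in PLX3397 library 2. The log2 fold was 0.21 ± 0.24 (SE, edgeR adjusted p = 0.620), and it was -0.03 without PLX3397 library 1 and 0.43 without library 2. In Ras tumours its log2 fold was -1.89. The experiments differ in tumour driver, start, duration and sample type, and the difference between the folds was not tested.

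**Figure D2:**
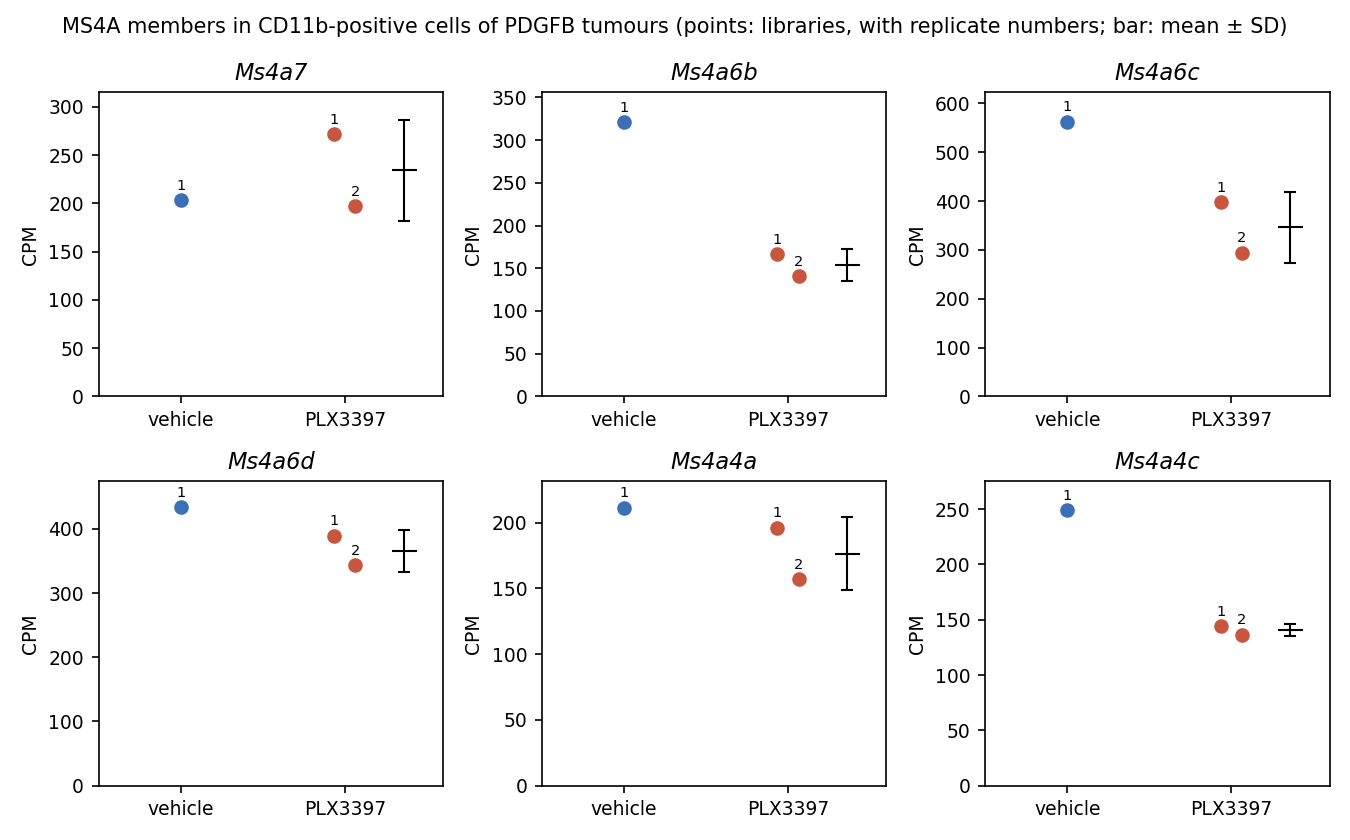
Level of each member in the 3 CD11b libraries (vertical axis, CPM; points are libraries with their replicate numbers, bars are mean ± SD of the 2 PLX3397 libraries; the vehicle group has 1 library). Ms4a6b drops from 321 to 167 and 140 CPM and Ms4a4c from 249 to 144 and 136 CPM, while the Ms4a7 values of 272 and 197 CPM lie on either side of the vehicle value of 203 CPM.

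Antigen presentation genes were also lower under PLX3397. All 8 had log2 folds below 0 (median -1.37, against 0.01 for all genes), 3 were called by edgeR and 8 by DESeq2, and their sum was 8181 CPM under vehicle against 2796 and 4072 CPM. Pan-myeloid genes gave 0 calls by edgeR, while DESeq2 called 2 of the 10 lower. Their sum overlapped, at 12330 CPM against 10720 and 13580 CPM. Ptprc stood at 937 CPM against 546 and 542 CPM. Of the list named MS4A partners, Card9 was called lower (log2 fold -0.86 ± 0.15 SE, edgeR adjusted p = 0.0481). Trem2, Tyrobp, Syk and Clec7a were not called.

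The other myeloid lists gave few calls by edgeR. Of 12 microglia genes 10 were below 0 (median -0.42) and 1 was called, Siglech, a sialic acid lectin, with a log2 fold of -0.98 ± 0.17 (SE, edgeR adjusted p = 0.0483). The lists of monocyte-derived macrophages, border-associated macrophages, monocytes and interferon response gave 0 calls by edgeR, with medians of -0.31, -0.52, 0.42 and -0.25. DESeq2 called 3 microglia genes lower. Among genes of monocyte-derived macrophages it called 1 lower and 2 higher, and among those of border-associated macrophages 2 lower and 1 higher. It called 3 monocyte genes higher and 0 interferon genes. Of all 15052 genes tested by edgeR, DESeq2 called 573 lower and 1407 higher. All 11 interferon genes tested were below 0. Of the other MS4A genes 7 were tested and 0 called, with Ms4a4b, the close copy of Ms4a4c, at 10.5 CPM against 6.79 and 5.75 CPM.

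The CD11b libraries also differed in RNA of other cells. Among all 15052 genes tested, edgeR called 688 higher and 268 lower. The 8 astrocyte markers summed to 123 CPM under vehicle and 675 and 710 CPM under PLX3397. Of these markers 7 were called higher by edgeR. Markers of dividing cells went the other way, at 1112 CPM against 231 to 344 CPM, with 8 of 8 below 0 (median log2 fold -1.90), 5 called lower by edgeR and 8 by DESeq2. Neural progenitor or tumour markers summed to 737 CPM against 1292 to 1568 CPM (3 called higher), and fibroblast markers to 168 CPM against 644 to 1103 CPM (3 called higher). The sums were also higher under PLX3397 for markers of oligodendrocyte precursors (3 called), oligodendrocytes (3 called), neurons (4 called), endothelial cells (1 called) and pericytes (1 called). None of these lists had a marker in the table at 0 in every library. Their part in the member levels was not tested.

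Dividing each member by the mean of the 10 pan-myeloid genes set it against the myeloid RNA of its own library. In Ras tumours that mean was 262, 168, 172 and 144 CPM under vehicle and 117, 124, 36.6 and 52.2 CPM under PLX3397. Ms4a6b then stood at 28.7, 28.0, 27.9 and 21.2% of the mean under vehicle and at 13.4, 13.6, 15.5 and 29.0% under PLX3397. PLX3397 libraries 1 to 3 lay below all vehicle libraries and PLX3397 library 4 above them. The same pattern of 3 libraries below and library 4 not below held for Ms4a7 and Ms4a6c. Ms4a7 stood at 8.94 to 13.8% under vehicle and at 6.76, 5.36, 5.88 and 10.3% in PLX3397 libraries 1 to 4. Ms4a6c stood at 41.2 to 56.5% against 28.1, 23.9, 37.5 and 60.7%. Ms4a6d lay on both sides, with PLX3397 libraries 1 and 2 at 29.2 and 30.8% below the vehicle range of 37.2 to 45.9%, and libraries 3 and 4 at 52.9 and 72.5% above it. Its mean was 46.3% under PLX3397 and 41.3% under vehicle. Ms4a4c also had a higher mean under PLX3397, at 29.5% against 19.6%, with libraries 3 and 4 at 29.0 and 59.3% above the vehicle range of 12.8 to 26.0% and library 2 at 5.12% below it. Ms4a4a overlapped, with PLX3397 library 1 at 5.77% below all vehicle libraries and library 4 at 19.4% above them. None of the 6 members was separate between groups on this scale.

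In CD11b-positive cells the same ratio was 26.0% under vehicle and 12.3 and 13.1% under PLX3397 for Ms4a6b. It was 45.6% against 29.3 and 27.5% for Ms4a6c and 20.2% against 10.6 and 12.7% for Ms4a4c. Ms4a6d and Ms4a4a were also below, at 35.2% against 28.7 and 32.0% and at 17.1% against 14.5 and 14.6%. Ms4a7 was above, at 16.5% against 20.0 and 18.4%. These ratios have no test.

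**Figure D3:**
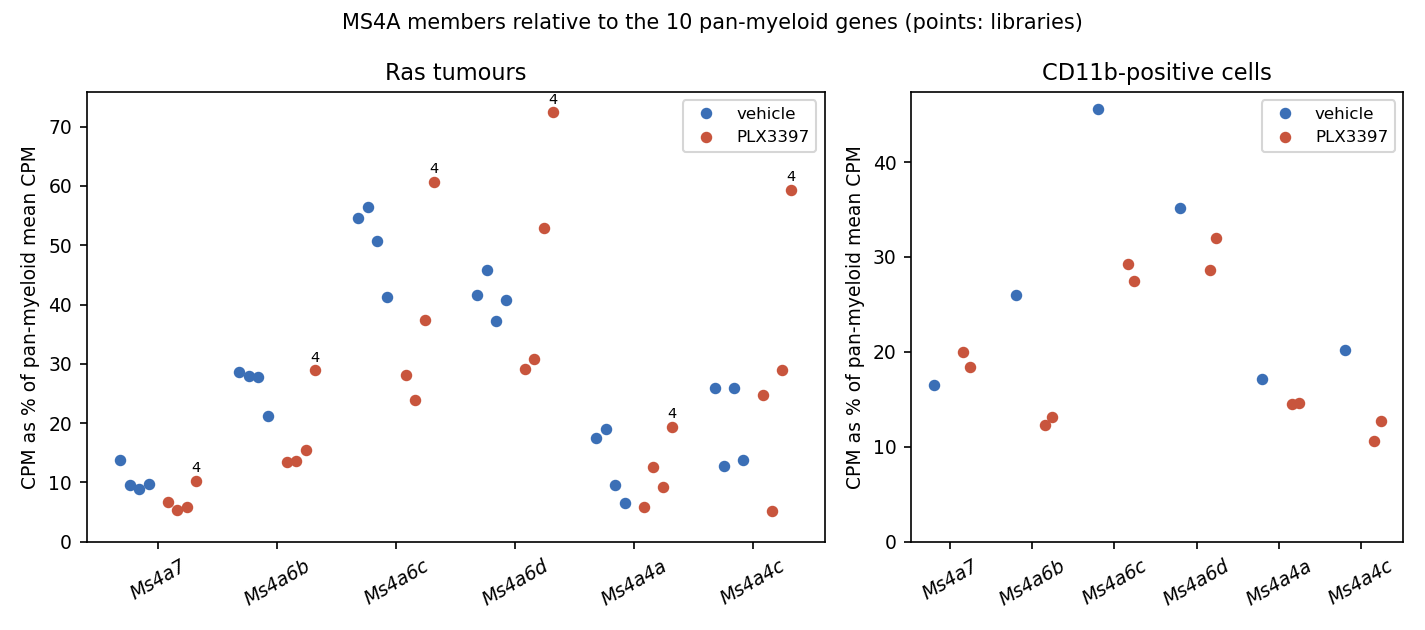
CPM of each member as a percent of the mean CPM of 10 pan-myeloid genes (vertical axis, %) in the Ras tumour libraries on the left and the CD11b libraries on the right (points are libraries, the digit 4 marks PLX3397 library 4). In Ras tumours the groups overlap for all 6 members, with library 4 at 29.0% for Ms4a6b and 60.7% for Ms4a6c. In CD11b-positive cells 5 members lie lower under PLX3397 and Ms4a7 lies higher.

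Cultured tumour cells held next to no MS4A transcripts. Both Ras lines had 0 counts of all 6 members, which allows up to 0.0838 and 0.0941 CPM (3 counts of each library). In PDGF lines 1 and 2 the members had 0 to 10 counts. PDGF line 3 held 120 counts of Ms4a7 (3.66 CPM), 57 of Ms4a6d (1.74 CPM), 30 of Ms4a6c (0.914 CPM) and 2 to 4 of the others. The same line held 507 counts of Tyrobp (15.5 CPM) and 162 of Csf1r (4.94 CPM), against at most 4 and 10 in the other lines. By contrast, Tmem176b stood at 93.5 to 232 CPM in all 5 lines.

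The single-cell libraries placed the transcripts among cell types, with unique molecular identifiers (UMIs) as the count. In the 10x library 3320 of 4384 barcodes were kept (median 8351 UMIs) and formed 14 clusters. In the Drop-seq library 4901 of 5000 barcodes were kept (median 1396 UMIs) and formed 9 clusters. All Ms4a genes were left out of the clustering. The libraries shared 0 barcodes, and Scrublet marked 0 doublets in either. No barcode was removed as a doublet, so doublets may remain. Clusters were named from marker lists, with macrophage, microglia and monocyte markers pooled as mononuclear phagocytes. With 1 library each there is no test, and all intervals cover counting error only.

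Most member UMIs lay in mononuclear phagocyte-like clusters. In the 10x library clusters 4 and 8 made up 16.1% of the cells (535) and 12.3% of all UMIs, but held 94.9% of the UMIs of the 6 members (10689 of 11261, exact 95% interval 94.5 to 95.3%). In the Drop-seq library cluster 8 made up 3.63% of the cells (178) and held 80.7% of member UMIs (302 of 374, exact 95% interval 76.4 to 84.6%). Per member, the 10x share ran from 89.7% for Ms4a6d to 98.3% for Ms4a7. In the Drop-seq library the share was again lowest for Ms4a6d, at 60.7%, with 75.8% for Ms4a6b, 84.6% for Ms4a7 and 86.2% for Ms4a6c. If the macrophage, microglia and monocyte lists were kept apart, the Drop-seq cluster tied between names and stayed unnamed, and the share was 0%.

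The phagocyte-like clusters of the 10x library differed from each other. Cluster 4 (273 cells, median 2587 UMIs) was led by Ccl22, Cst7, Fcrls, Ccl5 and C1qb. Cluster 8 (262 cells, median 15390 UMIs) was led by Rgs1, Arg1, Cd74, Lyz2 and Chil3. Microglia markers summed to 1456 CPM in cluster 4 and 1462 CPM in cluster 8, and monocyte markers to 84.1 and 1169 CPM. Antigen presentation genes summed to 2363 and 6661 CPM. Neural progenitor or tumour markers summed to 2657 CPM in cluster 4 and 1124 CPM in cluster 8, and oligodendrocyte precursor markers to 803 and 128 CPM. The part of RNA of other cells, or of depth, in the member levels of these clusters was not tested.

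All members but Ms4a4a were higher in cluster 8 than in cluster 4 beyond counting error. Ms4a6c stood at 594 CPM (exact Poisson 95% interval 573 to 615, 3173 UMIs) in cluster 8 and 356 CPM (325 to 388, 503 UMIs) in cluster 4. Ms4a6d stood at 422 and 300 CPM, Ms4a7 at 320 and 238 CPM and Ms4a6b at 249 and 160 CPM. Ms4a4c differed most among members with over 50 UMIs in each cluster, at 116 CPM (107 to 125) and 36.8 CPM (27.5 to 48.2). Ms4a4a was rare, at 10.1 CPM (7.59 to 13.2, 54 UMIs) and 4.24 CPM (1.56 to 9.23, 6 UMIs), which overlap.

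The order of members within phagocyte-like cells was Ms4a6c, Ms4a6d, Ms4a7, Ms4a6b, Ms4a4c and Ms4a4a in both 10x clusters. In Drop-seq cluster 8, Ms4a6c and Ms4a7 led at 485 CPM (399 to 584) and 476 CPM (392 to 574), which do not differ beyond counting error. Ms4a6d followed at 160 CPM, Ms4a6b at 108 CPM, Ms4a4c at 60.6 CPM and Ms4a4a at 17.3 CPM (4 UMIs). Both methods count ends of transcripts, so a level does not grow with transcript length.

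**Figure D4:**
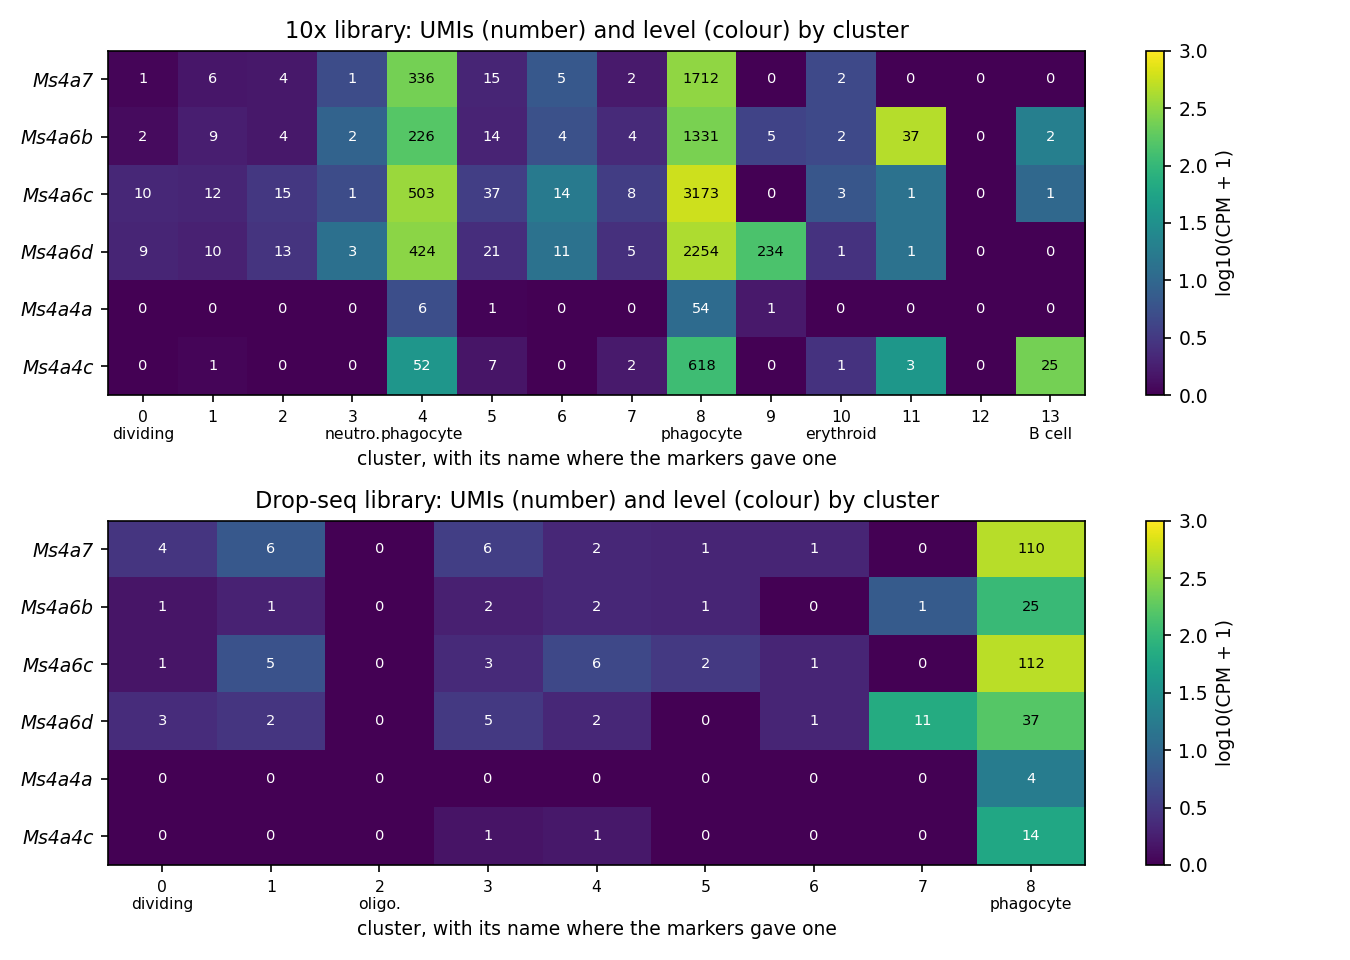
Members by cluster in the 10x library (upper panel) and the Drop-seq library (lower panel). Colour is log10(CPM + 1) of the summed UMIs of a cluster and each number is the UMI count; columns are clusters, named where the markers gave a name. UMIs concentrate in 10x clusters 4 and 8 and Drop-seq cluster 8, with Ms4a6d also in 10x cluster 9 (234 UMIs), Ms4a6b in cluster 11 (37 UMIs) and Ms4a4c in cluster 13 (25 UMIs).

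Shares of cells with a UMI depend on depth, so cells were also thinned to 1000 UMIs (10x) or 500 UMIs (Drop-seq). Before thinning, 92.7% of cluster 8 cells and 53.5% of cluster 4 cells had a UMI of Ms4a6c, and after it 39.6% and 26.8%. Ms4a7 was in 57.6% and Ms4a6b in 81.3% of cluster 8 cells before thinning, an order that reversed after thinning. In cluster 4 these shares before thinning were 36.6 and 33.3%. For Ms4a6d the thinned shares were 33.8 and 22.4%, for Ms4a7 25.0 and 16.8%, for Ms4a6b 18.5 and 14.8% and for Ms4a4c 10.0 and 3.60%. In Drop-seq cluster 8 they were 21.9% for Ms4a6c, 17.4% for Ms4a7, 8.99% for Ms4a6d, 6.18% for Ms4a6b, 3.93% for Ms4a4c and 1.12% for Ms4a4a. As a measure of free RNA, in erythroid-like cluster 10 (median 2326 UMIs) the thinned share was 1.39% for Ms4a6c, 0.694% for Ms4a6b and 0% for the other 4 members. Erythroid markers summed to 7.041e+05 CPM in that cluster, which leaves less room for other RNA. In unnamed cluster 6 (median 887.5 UMIs) the thinned share was 3.26% for Ms4a6c, 1.09% for Ms4a6b and for Ms4a6d, and 0% for the others. Ms4a4a was found in 2.31% of thinned cells in cluster 8 and 0% in cluster 4.

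**Figure D5:**
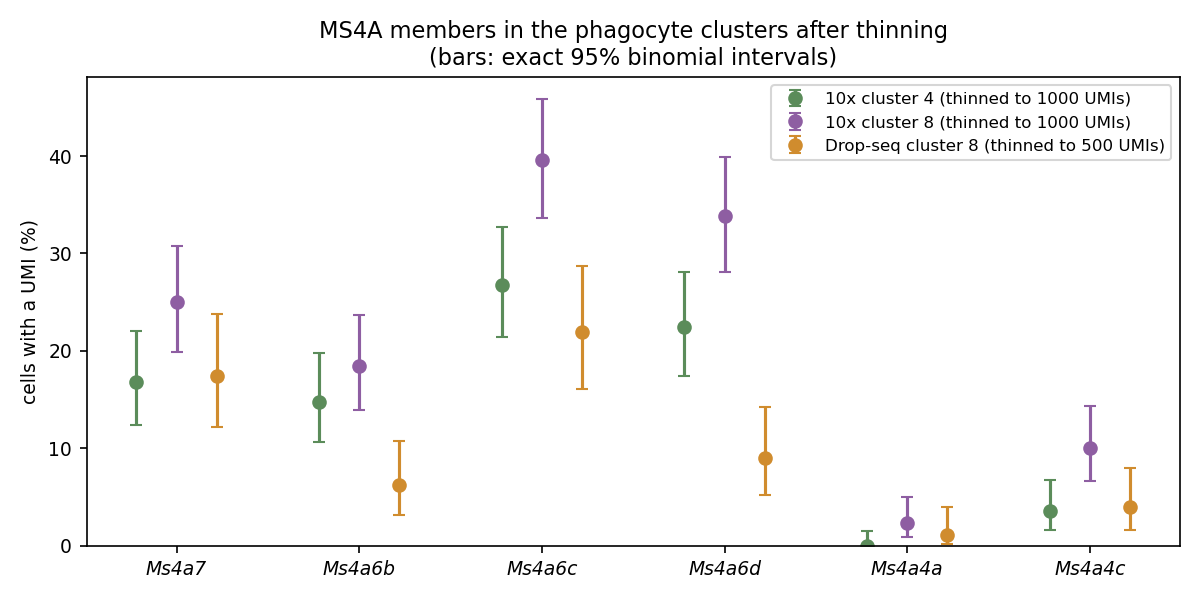
Percent of cells with at least 1 UMI of each member (vertical axis) in the phagocyte-like clusters after thinning every cell to a fixed number of UMIs (points, with exact 95% binomial intervals as bars). In the 10x library the point of cluster 8 lies above that of cluster 4 for each member, with bars that do not overlap for Ms4a6c and Ms4a6d, from 39.6 against 26.8% for Ms4a6c to 2.31 against 0% for Ms4a4a.

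Detection of members in the same cells was counted after thinning, where the members average less than 1 UMI a cell, so a low share says nothing of how many cells express them together. Of the 510 phagocyte-like 10x cells deep enough to thin, 63.1% held a UMI of at least 1 member, 32.2% of at least 2 and 9.61% of at least 3. Ms4a6d was found in 44.7% of the 85 cells with Ms4a6b (exact 95% interval 33.9 to 55.9%) and in 24.9% of the 425 cells without it (20.9 to 29.3%). Ms4a6c was found in 47.1% of the cells with Ms4a6b and 30.6% of those without. Ms4a4c was found in 5.88 and 7.06%, which overlap within counting error. These shares pool clusters 4 and 8, whose levels differ.

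Outside phagocyte-like clusters, Ms4a6d, Ms4a6b and Ms4a4c were each found in another cluster. Ms4a6d was at 142 CPM (exact Poisson 95% interval 124 to 161, 234 UMIs) in 10x cluster 9, which took no name and whose 55 cells carried all 10 endothelial markers beside pericyte and fibroblast markers. Ms4a7 and Ms4a6c had 0 UMIs there, which allows 1.82 CPM, and Ms4a6b had 5. Split by their leading markers, the 28 endothelial-led cells stood at 173 CPM of Ms4a6d, the 16 pericyte-led cells at 134 CPM and the 10 fibroblast-led cells at 83.9 CPM. Drop-seq cluster 7, with the same markers in 79 cells, held 11 UMIs of Ms4a6d (68.7 CPM, 34.3 to 123) and 0 of Ms4a7 and Ms4a6c.

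Ms4a6b was at 460 CPM (324 to 634, 37 UMIs) in 10x cluster 11, an unnamed cluster of 17 cells led by T cell and NK cell genes. Of these UMIs 36 lay in the 11 T cell-led cells (644 CPM) and 1 in the 6 NK cell-led cells. Ms4a6c and Ms4a6d each had 1 UMI in the cluster. Ms4a4c was at 235 CPM (152 to 346, 25 UMIs) in the 26 cells of B cell-like cluster 13, above its 116 CPM in phagocyte-like cluster 8, while Ms4a7 and Ms4a6d had 0 UMIs there. Neutrophil-like cluster 3 (82 cells) held 0 to 3 UMIs of each member. In the dividing cell-like cluster 0 no member passed 1.14 CPM.

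Across the 14 clusters of the 10x library, the genes most like Ms4a7 by Pearson's r of log2(CPM + 1) were Fcgr1 (r = 0.981), Lyz2, Aif1, Folr2 and Ccl12. Ms4a6c was nearest to C1qb (0.949), C1qc, Pld4, C1qa and Ctss, and Ms4a4a to Ccl24, Folr2, Apoc4, Ms4a7 and Fcrls. Ms4a6d was nearest to Rnase4 (0.924), Lgals3bp, Stab1, Ccl7 and Ccl2. Ms4a6b was nearest to Cd48 (0.937), Phf11b, Tnfaip8l2, Pycard and Runx3, and Ms4a4c to Il21r (0.971), Slamf6, Tspan32, Phf11b and Rasal3. These r values describe 14 clusters of 1 library that differ in depth, and 0 to 2 of the 5 genes of a member remained with rank correlations.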

How the data were processed

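The bulk tables were deposited by the authors as raw counts per gene symbol, and the single-cell tables as UMI counts per gene and barcode, with no normalization in either. Per the submitters' processing notes, the tools included STAR 2.6.1e and featureCounts 1.6.2, and further Trim Galore 0.4.2, cutadapt 1.9.1 and Cell Ranger, on the build GRCm38. The order of the steps is not given in the sources used here, and the 10x file header gives 3.1.0. Whether counting used strand was not given in the sources used here. Left out were 27 entries with dates for names in the Ras and line tables (at most 0.281% and 0.360% of a library), 1 unnamed entry in the CD11b table and 5 columns of the line table that match no sample. Of the counts from 1 to 10, 66.8% were even in the Ras table, 65.8% in the line table and 40.8% in the CD11b table.

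Each bulk comparison was fitted alone with edgeR 4.0.16 (TMM scaling, filterByExpr, robust quasi-likelihood test) in R 4.3.3, with Benjamini-Hochberg adjustment over all genes tested and calls at 0.05. DESeq2 1.42.0 was the alternative. The pipeline was tested on simulated data. The same replicate numbers occur in both Ras groups, but same-numbered libraries did not deviate together (r of 0.011, 0.138, -0.454 and 0.55), so no pairing was assumed. P-values set a difference against the spread between the libraries given, with the spread of each gene drawn toward that of all genes.

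Members and gene lists were chosen with earlier results of these data known. All 6 members were named. From the other lists, at most 4 genes with the smallest p per comparison were named. Ptprc under CD11b, Clec10a, Siglech and Ms4a4b follow that rule, whereas Tmem176b and the genes of the lines, and Clec7a, were chosen after their values were seen.

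Single cells were handled in scanpy 1.11.5. The 10x barcodes kept had at least 500 UMIs and 300 genes. For Drop-seq the minimum was 300 UMIs and 200 genes, and the mitochondrial share was capped at 20% in both. Clusters came from Leiden at resolution 0.5 on 30 components of 2000 variable genes with 15 neighbours. A name needed at least 4 markers at a fold of 2, and at least 1 among the 10 leading genes with no other class holding more, a rule set after the clusters were seen. Transcript lengths and positions are from GENCODE for GRCm38, and promoters from the RefSeq table. Identity was computed on coding sequences, and the planned identity of proteins was not run here.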

Additional observations from a re-analysis of the deposited data

Results flagged for a closer look

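Of the 12 groups of 4 Ras tumour libraries formed by 6 members and 2 treatments, 3 held a library far from the others. Chance flags about 1 in 20 groups, but the members go together over these libraries and 2 of the 3 cases are the same library, so the number of cases is not evidence of an excess. Ms4a7 stood at 36.1 CPM in vehicle library 1, against 14.0 to 16.2 CPM in the other vehicle libraries. Ms4a6b stood at 5.66 CPM in PLX3397 library 3, against 15.1 to 16.8 CPM in the other PLX3397 libraries. Ms4a6c stood at 13.7 CPM in the same PLX3397 library, against 29.5 to 32.8 CPM. The 10 pan-myeloid genes averaged 36.6 CPM in that library, the lowest of the 8, and 262 CPM in vehicle library 1, the highest.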

How the results depend on the processing

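In Ras tumours 0 of 6 members and 0 genes were called by edgeR with other size factors, with a replicate block, with a term for Ddx3y and without any single library. DESeq2 called 4 members and 178 genes, and the fit without a filter on low counts called 0 members and 1 gene. The replicate block gave log2 folds of -1.92, -1.95, -1.85, -1.26, -1.51 and -1.14 for Ms4a7, Ms4a6b, Ms4a6c, Ms4a6d, Ms4a4a and Ms4a4c. In CD11b-positive cells 2 members were called in each tested setting, while the 956 genes called by edgeR became 1980 with DESeq2 and 1907 without a filter. The log2 fold of Ms4a7 there reversed to -0.03 without PLX3397 replicate 1 and was 0.43 without replicate 2, fits with no residual degree of freedom and so no test. No paired analysis was possible because the CD11b groups share 1 replicate number. The 10x share of 94.9% was 93.3% at a finer clustering and 94.2% without barcodes above the 95th percentile of UMIs. The Drop-seq share of 80.7% was 84.8% without such barcodes, and 0% with the macrophage, microglia and monocyte lists kept apart, an alternative added after seeing the data, since the cluster then took no name. For the other changes the cause was not tested. Of 162 values under alternatives, 136 kept direction and side of the threshold or stayed close. The CD11b comparison rests on 1 vehicle library, and the Drop-seq shares on 374 UMIs.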

Other observations

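The wider family divided among clusters in the 10x library; the genes named here were chosen after their values were seen. Ms4a1, which encodes CD20, had 66 UMIs (619 CPM, exact Poisson 95% interval 479 to 788) in B cell-like cluster 13. Ms4a4b had 99 UMIs (1231 CPM, 1000 to 1499) in cluster 11, which also held Ms4a6b, and 30 UMIs (5.61 CPM) in phagocyte-like cluster 8. Ms4a4d had 57 UMIs (34.5 CPM, 26.2 to 44.8) in vascular cluster 9, beside Ms4a6d. Ms4a8a and Ms4a14 each had 50 UMIs (9.36 CPM, 6.94 to 12.3) in cluster 8. Tmem176b was at 753 CPM in cluster 4, 412 CPM in cluster 8 and 382 CPM in cluster 9.

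Ms4a4a took a different place by method. In vehicle Ras tumours it stood at 31.1 CPM per kb of exon, below Ms4a6c and Ms4a6d and above the other 3 members. It gave 62 of the 11261 member UMIs in the 10x library (0.551%) and 4 of 374 in the Drop-seq library. Its annotated exons sum to 836 bases, the shortest of the 6, against 1735 to 4485 bases for the others. Ms4a7 also changed place. It was lowest in vehicle Ras tumours, at 4.58 CPM per kb of exon. In the 10x library it gave 18.5% of member UMIs, and in the Drop-seq library 34.8%, as many as Ms4a6c.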
